A study of Mus musculus with 6 samples.

Results

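The vascular endothelial growth factor (VEGF) system was described in cultured mouse liver endothelial cells through 9 genes, chosen by symbol from the 13595 genes of the deposited table. They are 4 ligand genes (Vegfa, Vegfb, Vegfc and Pgf), 3 genes for receptor tyrosine kinases (Flt1, Kdr and Flt4) and 2 genes for the co-receptors called neuropilins (Nrp1 and Nrp2). All 9 were present in the table. The cells were CD31-positive primary cells isolated from the livers of C57BL6/J mice, aged 4 weeks per the series' design text, and then grown in culture. There were 3 libraries labelled male and 3 labelled female, numbered 4 to 6 in each group. Cells of all 6 libraries had received 100 µM indoxyl sulfate, a ligand of the aryl hydrocarbon receptor, together with hypoxia and nutrient deprivation for 6 hours. The comparison possible is therefore that of the sexes under this combined treatment, and the effect of indoxyl sulfate, hypoxia or starvation on its own was not analysed here. The labels do not say whether replicates are mice, isolations or wells, so each SD and p-value measures only the spread between these libraries, which may be technical.

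VEGF ligands are secreted dimers that bind receptor tyrosine kinases on endothelial cells. VEGF-A, the product of Vegfa, binds the receptors encoded by Flt1 and Kdr. Of these kinases, VEGF-B and placental growth factor bind the Flt1 product only, and VEGF-C acts mainly through the Flt4 product, which is best known from lymphatic vessels. The receptor encoded by Kdr carries most of the signal for endothelial growth and permeability, whereas the Flt1 product binds VEGF-A tightly but signals weakly and is also made as a soluble decoy. Neuropilins bind both VEGF ligands and most class 3 semaphorins. Vegfa is a textbook target of the hypoxia-inducible factors. In the liver, sinusoidal endothelial cells normally carry all 3 receptors, and ligand is supplied largely by neighbouring cells.

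Between 22303270 and 31189363 reads per library were counted on the listed genes. The value given for each gene is a normalized read count, that is, the read count divided by 1 factor per library. The library labelled male replicate 4 stood apart within its group, with a chi-square statistic per gene of 43.6 and 45.4 against the other male-labelled libraries, where the remaining pairs within a group gave 4.35 to 9.59 and pairs across groups 304 to 412. The sex labels were met only in part. Xist was read at 234 to 324 in the female-labelled libraries and at 0.124 to 0.458 in the male-labelled ones, but the Y-linked gene Ddx3y was read at 48.5 to 57.7 and at 47.2 to 76.3, and Uty, Eif2s3y and Kdm5d were also present in every library labelled female, at 17.6 or more. Every direction below rests on these labels. As for cell identity, 17 of 20 general endothelial markers passed the filter for testing. This count cannot show that the cells were endothelial, because 12568 of all 13595 listed genes passed the same filter. Pecam1, which encodes CD31, was read at 391 to 423 in the male-labelled libraries and 73.5 to 74.5 in the female-labelled ones. Of the 19 sinusoidal markers, 7 that were listed were too low to be tested, Stab2 and Clec4g among them.

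Most of the VEGF system was expressed at a lower level in the female-labelled libraries. Among the 9 genes, 7 were called lower (Vegfa, Vegfb, Vegfc, Pgf, Flt1, Flt4 and Nrp1), Nrp2 alone was called higher, and Kdr did not pass the test. Calls are those of limma on log2(value + 1), with a Benjamini-Hochberg adjusted p under 0.05 over all 12568 genes tested. The contrast was broad: 69.3% of all tested genes were called, 34.6% lower and 34.6% higher, and the groups did not overlap for 74.1% (37.0% lower and 37.1% higher). A call by itself, with 8 of 9 genes, therefore says little about them against that background. By size of the change, 20.6% of all tested genes were called with a log2 fold change of at least 1 in either direction. Here 4 of the 9 genes (Vegfa, Vegfc, Pgf and Flt1) were called lower with a log2 fold change of at most -1, where 12.1% of all tested genes were, and Nrp2 was called higher with at least 1, where 8.51% were. The median log2 fold change of the 9 genes was -0.92, against 0.01 over all tested genes. The 9 genes were chosen with earlier results of these data known, so these comparisons are no test of the set. In the authors' deposited table, 5 of the 9 had a false discovery rate under 0.05 (Vegfa, Vegfb, Pgf, Flt1 and Nrp2), where 25.8% of all its genes did.

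**Figure D1:**
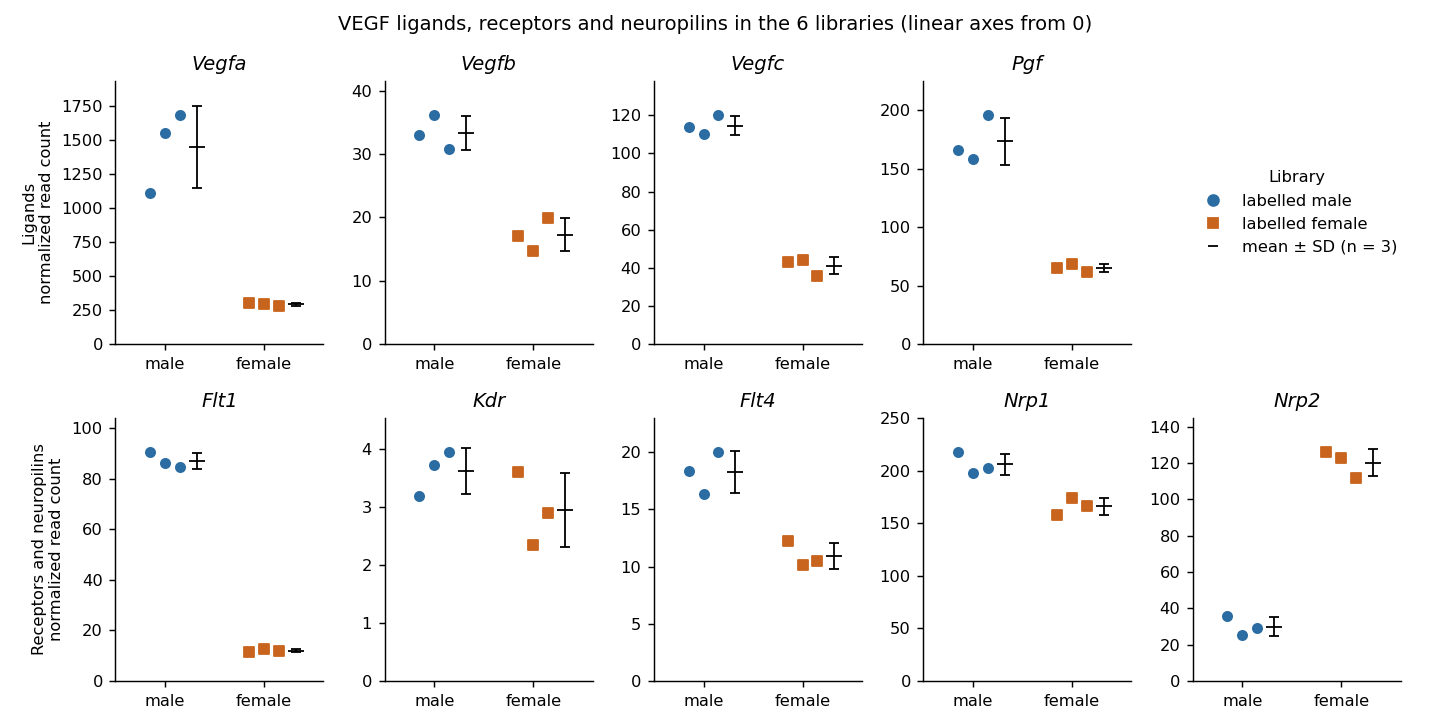
Normalized read count of each of the 9 genes (vertical axes, linear from 0) in the 3 libraries labelled male (circles) and the 3 labelled female (squares), with the mean and SD beside them. The groups do not overlap for any gene but Kdr, and Nrp2 is the gene with the higher values in the female-labelled libraries.

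Promoter sequences are shown for the gene that was highest (Vegfa), the gene that fell most (Flt1), the gene that did not pass the test (Kdr) and the gene that rose (Nrp2). Each runs 5′ to 3′ over the 250 bases before the RefSeq start site, in build GRCm38.p6, and all 9 genes had an entry. Capitals mark GCGTG, the core bound by the aryl hydrocarbon receptor with its partner, or its reverse complement CACGC. The second motif searched was ACGTG (reverse complement CACGT). Hypoxia-inducible factors bind either of the 2 cores. Both strands were searched, and ACGTG and its complement share bases where they occur as CACGTG. The stretches lie at chr17:46032378-46032627 on the minus strand, chr5:147726012-147726261 on the minus strand, chr5:75978456-75978705 on the minus strand and chr1:62703067-62703316 on the plus strand.
Vegfa: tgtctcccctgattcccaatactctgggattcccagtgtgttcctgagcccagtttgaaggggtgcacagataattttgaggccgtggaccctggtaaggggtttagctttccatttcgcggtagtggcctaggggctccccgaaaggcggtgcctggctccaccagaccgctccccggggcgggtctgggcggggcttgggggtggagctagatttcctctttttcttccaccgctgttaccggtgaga
Flt1: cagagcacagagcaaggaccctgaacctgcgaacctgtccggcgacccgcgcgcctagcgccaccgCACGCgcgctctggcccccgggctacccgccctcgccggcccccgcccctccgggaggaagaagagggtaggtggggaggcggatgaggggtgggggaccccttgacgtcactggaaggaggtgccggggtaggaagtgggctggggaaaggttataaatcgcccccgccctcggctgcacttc
Kdr: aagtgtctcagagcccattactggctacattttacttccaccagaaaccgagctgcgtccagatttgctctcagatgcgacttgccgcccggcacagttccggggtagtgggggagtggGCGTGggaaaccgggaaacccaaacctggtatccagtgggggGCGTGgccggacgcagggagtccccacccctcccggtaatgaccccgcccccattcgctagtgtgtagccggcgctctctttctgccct
Nrp2: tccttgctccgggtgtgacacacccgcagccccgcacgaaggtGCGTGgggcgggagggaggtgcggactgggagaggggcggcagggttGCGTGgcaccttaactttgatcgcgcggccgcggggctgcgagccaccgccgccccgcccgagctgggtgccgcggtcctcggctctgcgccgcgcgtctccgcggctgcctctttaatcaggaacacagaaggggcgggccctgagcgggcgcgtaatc
GCGTG was found in 6 of the 9 stretches and in 28.3% of all 27025 promoters of the same length. ACGTG was found in 0 of the 9 and in 16.5% of all. The promoters compared were not matched for base content, and the 9 stretches hold 59.2% (Vegfa) to 76.4% (Vegfb) G and C. Whether GCGTG is in excess beyond base content was not tested. Flt1, which fell, holds 1 copy of GCGTG, and both Kdr and Nrp2 hold 2. Vegfa, Vegfc and Flt4 hold neither motif in this window. A match is a string of letters and not a shown binding site, and a lack of matches holds for these 250 bases only.

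Among the ligands, Vegfa had the highest values and the log2 fold change of the largest size. It was read at 1112, 1551 and 1679 in male-labelled replicates 4, 5 and 6 and at 302, 293 and 280 in the female-labelled libraries of the same numbers. Even the lowest library labelled male stood far above the highest labelled female. The mean was 1447 ± 298 (SD, n = 3) against 291 ± 11.3 (SD, n = 3), or 4.97-fold higher in the male-labelled libraries. The log2 fold change of female against male was -2.29 with an SE of 0.14 (adjusted p 2.30e-06 by limma), and 2.79% of all tested genes had one as low. Male replicate 4 was the lowest of its group and widened its spread.

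Pgf encodes placental growth factor, a ligand of the Flt1 product. Its values were 166, 159 and 196 in the male-labelled libraries and 64.9, 68.4 and 61.4 in the female-labelled ones. The mean of the female-labelled libraries was 37.4% of that of the male-labelled ones, with no overlap (log2 fold change -1.40 with an SE of 0.09, adjusted p 2.70e-06 by limma).

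Vegfc encodes the main ligand of the Flt4 product, known for the growth of lymphatic vessels. It was read at 114, 110 and 120 in the male-labelled libraries and at 43.3, 44.3 and 35.9 in the female-labelled ones. The groups were again apart, 2.78-fold higher in the male-labelled libraries (log2 fold change -1.46 with an SE of 0.09, adjusted p 2.28e-06 by limma). In the authors' deposited table, the false discovery rate of Vegfc was 0.105, so this gene is called here and not there.

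Vegfb, whose product acts through the Flt1 product and has been tied to fatty acid handling, had the log2 fold change of the smallest size among the 4 ligands. Its values were 33.0, 36.1 and 30.8 in the male-labelled libraries and 17.1, 14.8 and 19.9 in the female-labelled ones. The log2 fold change was -0.92 with an SE of 0.12 (adjusted p 0.000162 by limma) and became -0.60 once a trend with GC content and transcript length was removed, still past the threshold. The 4 ligands thus all fell, by between 0.92 and 2.29 on the log2 scale.

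The fifth mammalian ligand of the family, VEGF-D, is listed under its older symbol Figf and was not among the 9 genes. Figf was read at 124, 73.2 and 72.3 in the male-labelled libraries and at 69.4, 80.3 and 94.7 in the female-labelled ones. These values overlapped and Figf was not called (log2 fold change -0.11, 95% interval -0.58 to 0.37, limma adjusted p 0.665). The high value is that of male replicate 4, and the log2 fold change was 0.15 without it and 0.0024 without female replicate 4. With a threshold missed and an interval this wide, a moderate change of Figf in either direction remains possible.

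Of the 3 receptor genes, Flt1 and Flt4 fell and Kdr did not pass the test. Flt1 was read at 90.7, 86.3 and 84.6 in the male-labelled libraries and at 11.5, 12.5 and 12.0 in the female-labelled ones. Replicates agreed closely on both sides, and the female-labelled mean was 13.7% of the male-labelled mean. The log2 fold change of -2.76 with an SE of 0.07 (adjusted p 3.18e-08 by limma) was the largest of the 9 genes in size, and 212 of the 12568 tested genes had one as low. The table gives 1 value per gene, so the full-length and the soluble form of the Flt1 product cannot be told apart.

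Flt4 was read at 18.4, 16.4 and 20.02 in the male-labelled libraries and at 12.2, 10.1 and 10.5 in the female-labelled ones. The female-labelled mean was 59.9% of the male-labelled mean, without overlap (log2 fold change -0.69 with an SE of 0.11, adjusted p 0.000603 by limma). In the authors' deposited table, Flt4 had a false discovery rate of 0.613.

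Kdr, the gene of the main signalling receptor, had the lowest values of the 9 genes. It was read at 3.19, 3.74 and 3.96 in the male-labelled libraries and at 3.61, 2.34 and 2.90 in the female-labelled ones, which rests on 53 to 112 reads per library. The groups overlapped and Kdr was not called. Its log2 fold change was -0.24 with a 95% interval from -0.57 to 0.09 (limma adjusted p 0.175), and it ran from -0.36 without female replicate 4 to -0.12 without female replicate 5, not called in either case. At this level the value of 1 added before the logarithm weighs on the estimate, and with 0.1 added instead the log2 fold change of Kdr was -0.31 (limma adjusted p 0.189).

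**Figure D2:**
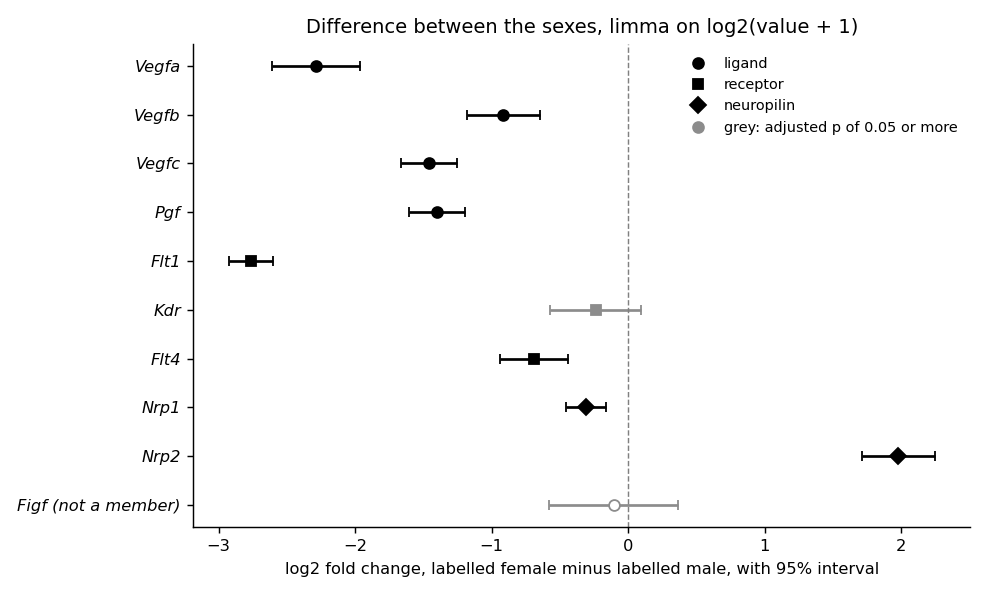
Log2 fold change of the female-labelled libraries against the male-labelled ones (horizontal axis, limma on log2(value + 1)) for each gene, with its 95% interval, and Figf as an open circle for comparison. All 4 ligands lie between -2.29 and -0.92, the receptors run from -2.76 (Flt1) to -0.24 (Kdr, grey), and Nrp2 lies at 1.98.

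Most general endothelial markers moved in the same direction as the ligands, Flt1, Flt4 and Nrp1. Of the 17 tested, 15 were called lower and 2 higher, with a median log2 fold change of -1.90 against 0.01 over all tested genes, of which 34.6% were called in each direction. Of the 15, 3 (Vwf, Robo4 and Ramp2) were under 1 in every female-labelled library and entered the test through the other group alone. The summed value of all 20 general endothelial markers was 2396 to 2496 in the male-labelled libraries and 1294 to 1360 in the female-labelled ones. Of 10 sinusoidal markers tested, 6 were called lower and 3 higher, the latter near the share of all tested genes. Among these calls, Gpr182 (lower) was under 1 in every female-labelled library and Wnt2 (higher) in every male-labelled one. Each entered the test through the other group alone. The summed value of that list was 1330 to 1362 against 283 to 304, and Lyve1 (mean 498 against 4.98) and Aqp1 (mean 490 against 19.6) carry most of the difference, while Gata4 (8.56-fold) and Maf (3.48-fold) were higher in the female-labelled libraries. In bulk RNA, fewer endothelial cells and less RNA per cell cannot be told apart. Single endothelial markers changed by unequal amounts, Pecam1 with a log2 fold change of -2.44 and Cdh5 with -1.25. The 2 called higher were Eng (0.40) and Ptprb (3.47). A level of a VEGF gene relative to 1 marker thus depends on the marker chosen and is not given.

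Markers of other cell types moved as well. Of the tested fibroblast, stellate and mural markers, 9 of 16 were called lower and 6 higher, where 34.6% of all tested genes were called in each direction. Among these, Lum (lower) entered the test through the male-labelled libraries alone and Hand2 (higher) through the female-labelled ones alone. The summed value of the list was 2927 to 3766 in the male-labelled libraries and 3612 to 4324 in the female-labelled ones. Within that list the contractile markers Acta2 (21.5-fold), Tagln (20.3-fold), Myh11 (75.01-fold) and Cnn1 (13.9-fold) were higher in the female-labelled libraries, while Pdgfrb (9.25-fold), Col3a1 (5.6-fold) and Pdgfra (3.16-fold) were lower. Without male replicate 4, Acta2 was 33.1-fold higher. Of 7 mesothelial markers tested, 6 were called higher, but 4 of these (Upk3b, Wt1, Gpm6a and Upk1b) were under 1 in every male-labelled library and so entered the test through the other group alone. The summed value of the list was 118 to 121 against 430 to 455. Cholangiocyte markers were mostly lower, 5 of 6 tested, with a summed value of 1648 to 2496 against 513 to 616. Lymphatic markers gave 2 lower and 3 higher of 5 tested, Sema3d through the female-labelled libraries alone. Their summed value was 494 to 537 against 139 to 148. That sum is carried by Lyve1, also a sinusoidal marker, whose mean was 498 against 4.98, whereas Pdpn was 14.2-fold higher in the female-labelled libraries and Prox1 was also called higher. Macrophage markers were scarce, with a summed value of 7.59 to 10.1 against 15.3 to 18.5, and all 3 tested of 14 were called higher, Fcer1g through the female-labelled libraries alone. Hepatocyte markers were scarce as well, at 15.7 to 23.9 against 24.7 to 47.9, with 2 higher and 1 lower (Ahsg, through the male-labelled libraries alone) of 3 tested. The macrophage markers Emr1 and Tyrobp and the hepatocyte marker Cyp3a11 were at 0 in all 6 libraries. None of the 12 lymphocyte markers was listed. The part of these cell types in the differences of the VEGF genes was not tested.

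The neuropilins parted. Nrp1, which binds VEGF-A together with the Kdr product, was read at 218, 198 and 202 in the male-labelled libraries and at 158, 174 and 166 in the female-labelled ones. The difference was small and without overlap (log2 fold change -0.31 with an SE of 0.06, adjusted p 0.00265 by limma), and it shrank to -0.20 under quantile normalization, still past the threshold. In the authors' deposited table, Nrp1 had a false discovery rate of 0.480.

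Nrp2, which binds VEGF-C and class 3 semaphorins and is known from veins and lymphatic vessels, went the other way. It was read at 35.6, 25.4 and 28.9 in the male-labelled libraries and at 126, 123 and 112 in the female-labelled ones. The mean was 30.0 ± 5.19 (SD, n = 3) against 120 ± 7.56 (SD, n = 3), or 4.01-fold higher in the female-labelled libraries. Its log2 fold change was 1.98 with an SE of 0.12 (adjusted p 1.94e-06 by limma), and 209 of all tested genes had one as high.

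To compare ligands with receptors, each value was divided by the length of the gene's longest annotated transcript. On this scale, the normalized read count per kb, every library had far more ligand than receptor transcript. The 4 ligands summed to 576 ± 92.0 (SD, n = 3) in the male-labelled libraries and 146 ± 4.68 (SD, n = 3) in the female-labelled ones. The 3 receptors summed to 16.2 ± 0.428 and 3.98 ± 0.210 (SD, n = 3). Both sums were lower in the female-labelled libraries by a similar factor, with no test made. The ratio of ligand to receptor sum was accordingly 35.7 ± 6.32 (SD, n = 3) and 36.7 ± 1.63 (SD, n = 3), and the groups overlapped, from 28.5 to 40.5 and from 35.5 to 38.5. The neuropilin sum was 61.0 ± 3.59 and 63.5 ± 2.27 (SD, n = 3), also with overlap. These sums depend on the transcript assumed. With the shortest coding transcript of each gene the ratio was 183 and 168, again with overlap, but the neuropilin sums, at 61.1 to 69.0 and 72.7 to 77.6, lay apart.

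**Figure D3:**
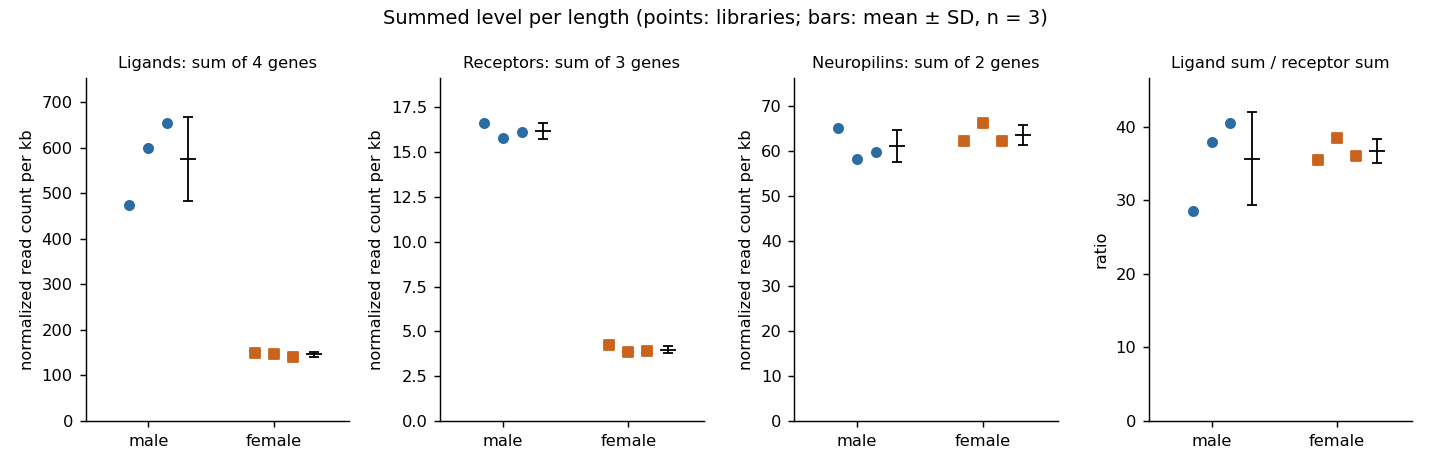
Summed normalized read count per kb of the 4 ligands, 3 receptors and 2 neuropilins, and the ratio of the ligand to the receptor sum, in each library (points) with the mean and SD, on linear axes from 0. Ligand and receptor sums are lower in the female-labelled libraries, whereas the neuropilin sums and the ratio, here by longest transcript, overlap between the groups.

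Behind these sums, the make-up changed. Vegfa supplied 72.5% ± 3.94 (SD, n = 3) of the ligand sum in the male-labelled libraries and 57.9% ± 0.511 (SD, n = 3) in the female-labelled ones, while the share of Pgf went from 14.7% to 21.4%, that of Vegfc from 8.26% to 11.5% and that of Vegfb from 4.61% to 9.26%. Among the receptors, Flt1 supplied 78.2% ± 1.86 (SD, n = 3) in the male-labelled libraries and 43.7% ± 4.04 (SD, n = 3) in the female-labelled ones. The share of Flt4 was 18.04% and 43.8% of the receptor sum and that of Kdr 3.79% and 12.4%, although neither gene had a higher mean. Nrp2 supplied 7.27% ± 0.830 of the neuropilin sum in the male-labelled libraries and 28.2% ± 1.77 (SD, n = 3) in the female-labelled ones. Each of these shares was apart between the groups, with no test made. These shares depend on the transcript assumed: with the shortest coding transcript, Vegfa supplied 88.9% and 81.4%, Vegfc 6.67% and 10.6%, Pgf 3.53% and 5.88%, and Vegfb 0.933% and 2.14% of the ligand sum, and Nrp2 10.98% and 38.2% of the neuropilin sum.

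The order of the levels per kb also differed. In the male-labelled libraries it ran from Vegfa (419 per kb) over Pgf (83.4), Nrp1 (56.5), Vegfc (46.8), Vegfb (25.99), Flt1 (12.6), Nrp2 (4.46) and Flt4 (2.92) to Kdr (0.612), and no neighbours in this order overlapped. In the female-labelled libraries it ran from Vegfa (84.4 per kb) over Nrp1 (45.6), Pgf (31.2), Nrp2 (17.9), Vegfc (16.8), Vegfb (13.5), Flt4 (1.75) and Flt1 (1.74) to Kdr (0.498). There the ranges of Nrp2 and Vegfc, of Vegfc and Vegfb, and of Flt4 and Flt1 overlapped. Set among the 13493 genes with a length, Vegfa stood above 98.9% in the male-labelled libraries and 94.6% in the female-labelled ones, while Kdr stood above 14.7% and 13.6%. The level of Flt1 passed 65.4% of genes in the male-labelled libraries and 26.2% in the female-labelled ones. With the shortest coding transcript, Vegfc (206 per kb) stood above Pgf (110 per kb) in the male-labelled libraries, and Vegfc (74.2 per kb) above Nrp1 (46.2 per kb) and Pgf (41.0 per kb) in the female-labelled ones.

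**Figure D4:**
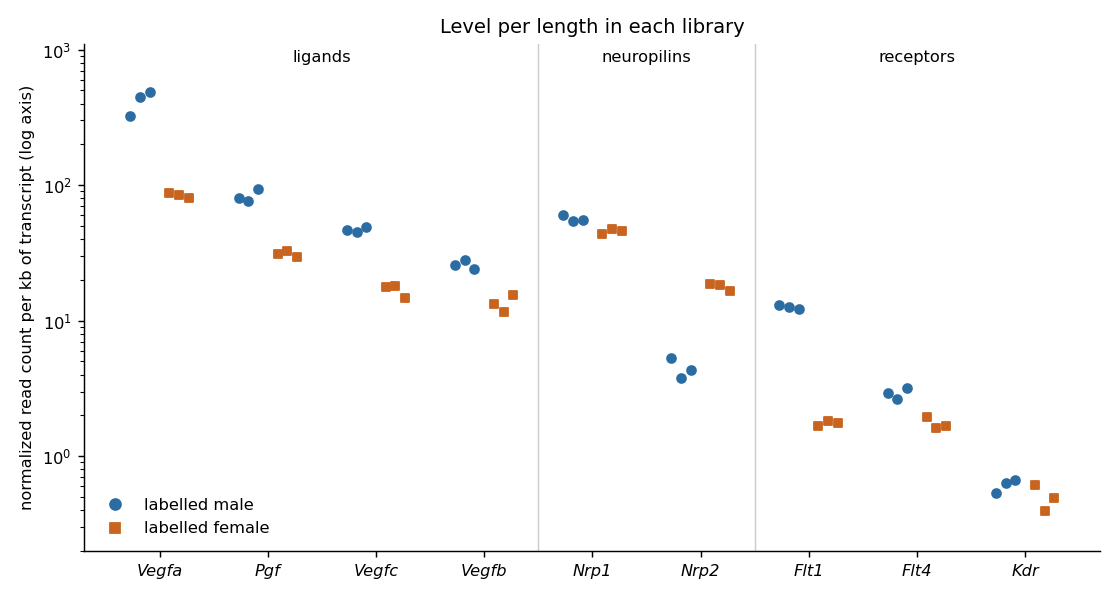
Normalized read count per kb of longest transcript (vertical log axis) of each gene in the male-labelled (circles) and female-labelled libraries (squares), grouped into ligands, neuropilins and receptors. Vegfa is highest and Kdr lowest in both groups, and Flt1 and Flt4 lie apart in the male-labelled libraries but overlap in the female-labelled ones.

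Whether genes of the VEGF system changed unequally was asked within each library, as the log2 ratio of 2 genes with 1 added to each value. For all 6 pairs compared the ratios of the 3 male-labelled and 3 female-labelled libraries did not overlap. Each pair gave the smallest p that 3 against 3 allow (exact two-sided permutation test, p = 0.10, 0.10 after Benjamini-Hochberg adjustment over the 6 pairs), so none can pass 0.05. The groups did not overlap for 74.1% of single tested genes, and the share over gene pairs in general was not computed. The count of pairs therefore says little by itself. The ratio of Flt1 to Kdr values was 21.4 to 28.4 in the male-labelled libraries and 3.17 to 5.32 in the female-labelled ones, a log2 difference of -2.53. For Vegfa to Kdr the values were 348 to 425 and 83.7 to 125 (log2 difference -2.05). The ratio of Vegfa to Flt1 values was 12.3 to 19.9 and 23.3 to 26.4, a log2 difference of 0.48. Male replicate 4 had the lowest of these ratios, and without it the log2 difference was 0.27. The log2 difference was -1.37 for Vegfa to Vegfb and -0.77 for Vegfc to its receptor gene Flt4. The ratio of Nrp1 to Nrp2 values was 6.12 to 7.82 in the male-labelled libraries and 1.26 to 1.49 in the female-labelled ones (log2 difference -2.29).

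Genes known to regulate the VEGF genes were mostly lower. Lists of pathway genes are given by their counts, and the largest changes are ranked on the log2(value + 1) scale, which understates those of low genes. A gene under 1 in every library of 1 group entered the test through the other group alone and had to differ, so it is counted among the calls but given by its values only. None of the 9 VEGF genes is of this kind. Of 31 tested regulators, 23 were called lower and 4 higher, where 34.6% of all tested genes were called in each direction, and the median log2 fold change was -1.01. Hif1a, which encodes an oxygen-regulated factor that drives Vegfa, was read at 1141 to 1826 in the male-labelled libraries and at 298 to 379 in the female-labelled ones (log2 fold change -2.18 with an SE of 0.17, adjusted p 1.03e-05 by limma). Epas1, which encodes a second such factor, was lower by nearly as much (-2.02), and their shared partner Arnt by less (-0.57). The largest falls on that scale were those of Mef2c (-3.37), Ets2 (-3.31) and Vhl (-2.62), the last encoding the ubiquitin ligase subunit that marks hypoxia-inducible factors for decay. By the ratio of means the low gene Erg, named after its values were seen, was 6.84-fold lower and Vhl 6.32-fold. Hif1an (1.16), which encodes an inhibitor of those factors, and Tead1 (0.68) rose. Ahrr, which encodes the repressor of the aryl hydrocarbon receptor, was under 1 in every male-labelled library, at 0.373 to 0.706 against 1.59 to 1.71. Ahr itself was lower by a small margin, at 25.4 to 26.7 against 20.7 to 22.5 (log2 fold change -0.27, limma adjusted p 0.0115).

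Genes that VEGF is known to induce in endothelial cells were divided. Of 32 tested, 19 were called lower and 10 higher, with a median log2 fold change of -0.99, where 34.6% of all tested genes were called in each direction. The share called higher is thus near that of all genes, and 3 of the 19 lower calls (Dll4, Nr4a3 and Pdgfb) were under 1 in every female-labelled library. The largest falls on the log2(value + 1) scale were those of Adamts1 (-2.30), a protease gene, Cd34 (-2.23), a tip cell marker, and Stc1 (-2.18). Dll4, which encodes a Notch ligand of tip cells, was at 1.77 to 3.44 in the male-labelled libraries and 0.0884 to 0.190 in the female-labelled ones. The largest rises were those of Ptgs2 (3.15), which encodes cyclooxygenase-2, Esm1 (2.43), a tip cell marker, and F3 (2.18), which encodes tissue factor. Of these tip cell markers, Cd34 was thus lower and Esm1 higher. Among other genes of this list known from tip cells, Apln (-2.08) and Angpt2 (-1.33) were lower and Unc5b (0.23) higher. The values of Dll4 and Pdgfb were also lower, but both entered the test through the male-labelled libraries alone. Many genes of this list also answer to other stimuli.

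Inside the cell, 19 of 48 tested genes of VEGF receptor signalling were called lower and 19 higher, near the 34.6% of all tested genes in each direction, with a median log2 fold change of -0.08. Nos3, which encodes endothelial nitric oxide synthase, was read at 9.995 ± 1.81 in the male-labelled libraries and 0.217 ± 0.101 in the female-labelled ones (SD, n = 3), the latter from 3 to 8 reads per library, and entered the test through the male-labelled libraries alone. Mef2c (-3.37) fell, as did Sphk1 (-1.81), which encodes sphingosine kinase, closely followed by Pik3r1 (-1.76), a gene of a phosphoinositide kinase subunit. Pik3cb (3.64) and Plcg2 (2.18), genes of a phosphoinositide kinase and a phospholipase, rose most, followed by Hras (1.51).

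Of 25 tested genes of receptor trafficking and phosphatases, 9 were called lower and 11 higher, again near the 34.6% of all tested genes in each direction, with a median of 0.15. Ptprb, which encodes the vascular endothelial phosphatase that restrains receptor signalling, rose from 4.71 ± 0.628 to 62.3 ± 4.11 (SD, n = 3, log2 fold change 3.47, limma adjusted p 6.76e-08). Synj2bp (1.003) and Ptpn11 (0.85) followed. Clec14a (-1.90) and Cdh5 (-1.25), the gene of vascular endothelial cadherin, fell. Ptpn6, a phosphatase gene, was under 1 in every female-labelled library, at 2.07 to 5.57 against 0.427 to 0.457.

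Among genes of class 3 semaphorins and of plexins, which include partners of the neuropilins, 5 of 11 tested were called lower and 5 higher. Of all tested genes, 34.6% were called in each direction, and the median of the list was -0.12. Sema3e was read at 43.6 to 50.5 in the male-labelled libraries and at 894 to 922 in the female-labelled ones (log2 fold change 4.27 with an SE of 0.07, adjusted p 5.48e-09 by limma). Plxnd1, which encodes the plexin that binds the Sema3e product, fell from 163 ± 6.89 to 14.5 ± 2.69 (SD, n = 3, log2 fold change -3.42, limma adjusted p 1.15e-07). Ligand and receptor of this pair thus changed in opposite directions. Sema3c (2.89) also rose. Sema3d was at 0.0829 to 0.388 in the male-labelled libraries, from 2 to 11 reads, and at 25.4 to 27.9 in the female-labelled ones, so that it entered the test through the latter alone. On the other side, Sema3f (-1.50), whose product is a ligand of the Nrp2 product, fell. Sema3b, at 2.97 to 3.11 against 0.309 to 0.902, entered through the male-labelled libraries alone.

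Of the genes that process VEGF-C or its enzymes, 3 were called lower and 3 higher of 9 tested, near the 34.6% of all tested genes in each direction, with a median of -0.01. Ccbe1, which encodes a cofactor for the cleavage of VEGF-C, rose from 12.8 ± 1.56 to 100.3 ± 8.09 (SD, n = 3, log2 fold change 2.88, limma adjusted p 1.28e-07), whereas Adamts3, the gene of the cleaving protease, fell (-0.78), as did Plat (-2.71) and Plau (-0.74). Pcsk5 (0.90) and Ctsd (0.22) rose, and the call on the log2 fold change of Ctsd was lost without male replicate 5, without female replicate 4 and without female replicate 5 (limma adjusted p 0.0626, 0.128 and 0.114). Matrix and heparan sulfate genes gave 13 lower and 8 higher of 23 tested, against the same 34.6% each way, with a median of -0.43. Thbs1, which encodes the inhibitor of angiogenesis thrombospondin-1, rose from 444 ± 73.0 to 2941 ± 364 (SD, n = 3, log2 fold change 2.73, limma adjusted p 5.73e-07), with Sulf1 (1.81) and Hs6st2 (1.76) next. Gpc3 (-3.16), a heparan sulfate proteoglycan gene, and Adamts1 (-2.30) fell. Mmp9, a matrix protease gene, was under 1 in every female-labelled library, at 2.78 to 3.36 against 0.291 to 0.665.

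**Figure D5:**
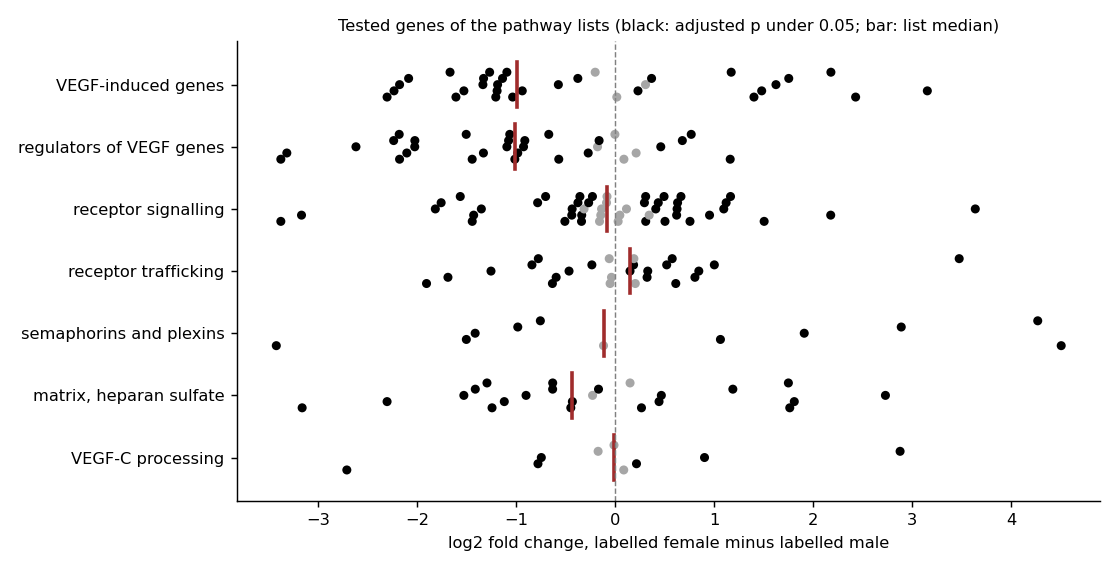
Log2 fold change of the female-labelled libraries against the male-labelled ones (horizontal axis) of each tested gene of the 7 pathway lists, black where the limma adjusted p was under 0.05 and grey otherwise, with the list median as a bar. The medians of the VEGF-induced genes (-0.99) and the regulators (-1.01) lie lowest, and the other 5 lie between -0.43 and 0.15.

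The genes with the profile most like that of a member were found by the root mean square difference of centred log2(value + 1) over the 6 libraries, among 8968 genes with a mean of at least 10. Vegfa was nearest to Adssl1 (0.0615), Ankrd37 (0.0772) and Arap3 (0.0797). Flt1 was nearest to Emilin1 (0.0370), C1qtnf1 (0.0556) and Stc2 (0.0596). Nrp2 was nearest to Pcdhgb2 (0.0570), Tubb2a (0.0859) and Fhl1 (0.0954). How many genes lie this close varied widely: 704 genes were within 0.1 of Nrp1, which changed little, but only 8 of Vegfa and 6 of Nrp2. With 92.7% of the variance over all tested genes on the first principal component, such likeness mainly states a difference of similar size between the groups.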

How the data were processed

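Poly(A) RNA of 6 libraries was sequenced, per the labels' protocols. The submitters' processing notes name Bowtie2, RSEM, edgeR and the genome build mm39, without roles, and the annotation and the rule for detectable genes are not given in the sources used here. The deposited signal values are read counts that the authors divided by 1 factor per library, since 100% of them were whole multiples, within 0.01 reads, of the smallest value above 0 in each column. That value was taken as 1 read. The authors also deposited a signed fold change (a score of at most -1 or at least 1) and, per gene, a p-value with its false discovery rate. Columns were matched to samples by title, with 0 left over.

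limma 3.58.1 in R 4.3.3 (intensity trend) was fitted to log2(value + 1) of every gene that reached a value of 1 in 3 or more libraries. The value of 1 added understates changes of low genes. edgeR 4.0.16, DESeq2 1.42.0 and voom on the recovered reads were alternatives. The scripts were tested on simulated data.

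Lengths and chromosomes were matched by symbol to GENCODE M21 (GRCm38), not mm39, for 13493 of 13595 genes (99.2%). For each member at most 0.862% of its 50-mers occurred in other genes. The 9 genes lie on chromosomes 17 (Vegfa), 19 (Vegfb), 8 (Vegfc and Nrp1), 12 (Pgf), 5 (Flt1 and Kdr), 11 (Flt4) and 1 (Nrp2). No coordinates are given but those of the RefSeq promoters, of which 50 transcribed bases were left out.

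The members and gene lists were chosen with earlier results of these data known. Named were all members, Figf, Pecam1, Ahr, Arnt, Hif1a and Epas1, up to 3 called genes in each direction per pathway list with groups that did not overlap and a mean of at least 1, and the 3 genes nearest to each member, of which those of 3 members are printed. Marker genes given by value or fold change, Pik3r1, Dll4, Nr4a3, Pdgfb, Apln, Angpt2, Unc5b and Erg were named after their values were seen. Older symbols (Figf, Ctgf, Ppap2a, Emr1) were matched through RefSeq. Replicate numbers were not found to pair libraries.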

Additional observations from a re-analysis of the deposited data

How the results depend on the processing

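All 9 VEGF genes kept their direction and their side of the threshold under 16 alternatives each: another pseudocount, other filters, scalings and count tests, a replicate block, removal of a GC content and length trend (chosen after seeing the data), and each library left out in turn. With all libraries, the number of genes called, female against male, was 8236 to 9097 over the alternatives. Leaving out 1 library gave 7373 (without female replicate 5) to 9113 (without male replicate 4). Asking for a log2 fold change of at least 1 in size left 2589. With the shortest coding transcript, the ratio of ligand to receptor sum was 183 in the male-labelled libraries and 168 in the female-labelled ones. The sign of Figf turned without male replicate 4 (0.15) and without female replicate 4 (0.0024), and its lowest value without 1 library was -0.24. That of Ddx3y turned without male replicate 5 (0.13), with a lowest value of -0.21. Ddx3y (-0.50) and Uty (-0.58) passed the threshold once the GC content and length trend was removed. The cause was not tested.

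Nothing in the data pairs libraries by replicate number: same-numbered libraries had correlations of -0.09, -0.03 and -0.17 in their deviations from the group means. With the replicate number as a block, 8314 genes were called against 8704 without it. Of the named genes one alone lost its call, the log2 fold change of Ctsd (limma adjusted p 0.0847). Depth limits Kdr most among the VEGF genes, as it rests on 53 to 112 reads per library.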
